A study of Danio rerio with 18 samples.

Results

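Cathepsins are the main proteases of lysosomes. The set described here is 10 zebrafish cathepsin genes, taken by symbol from the 25432 rows of a gene table. They are ctsba, ctsbb, ctsd, ctsla, ctsl.1, ctsz, ctsh, ctsc, ctsk and ctsa. All 10 symbols were found, each in 1 row, and 8 of the 10 genes were measured well enough to be tested. The values come from RNA sequencing of zebrafish ovary material in 4 groups. These were sinhcaf-/- mature eggs (5 libraries), wild-type mature eggs (5 libraries), sinhcaf-/- FG follicles (4 libraries) and wild-type FG follicles (4 libraries). Per the labels, a library pooled eggs or follicles of 1 female, so the replicate is a fish. The labels give neither the age of the fish nor the nature of the sinhcaf lesion, and FG is used as they write it.

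Most cathepsins are cysteine proteases of the papain family, made as inactive precursors and switched on by cutting in the acid interior of the lysosome. Cathepsin D is an aspartic protease and cathepsin A a serine carboxypeptidase. In fish and other egg-laying vertebrates, growing oocytes take up vitellogenin from the blood, and cathepsins B, D and L are known for cutting it into yolk proteins and for later yolk breakdown. sinhcaf encodes a small protein of the SIN3 co-repressor, a complex that carries histone deacetylases to chromatin.

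Values are FPKM, fragment counts scaled by gene model length and by the mapped fragments of the library, so levels of different genes can be set side by side. Depth is unknown, since the values carry no read counts. The SD given is the spread between fish of a group. The SE and confidence interval come from limma, which shares a spread per gene over all 4 groups and moderates it by other genes. Log2 changes are on the scale log2(FPKM + 1), which draws the changes of genes near 0 FPKM towards 0. A gene was called when limma's adjusted p over all 10547 tested genes was under 0.05. The targeted gene sinhcaf ran from 0.184 to 0.351 FPKM in mutant eggs and from 0.361 to 1.59 FPKM in wild-type eggs. The difference on the log2 scale was -0.42, with an exact permutation p of 0.00794, the smallest that 5 against 5 can give, and a limma adjusted p of 0.210. It ran from 0.359 to 1.03 FPKM in mutant FG follicles and from 0.615 to 3.05 FPKM in wild-type FG follicles, with a log2 difference of -0.90 (exact permutation p = 0.0857, where 0.0286 is the smallest possible; limma adjusted p = 0.0115). The 0.615 FPKM belong to wild-type FG follicle library 4, which thus overlapped the mutants in sinhcaf. The summed FPKM of 10 oocyte markers was 978 to 1310 in mutant eggs, against 933 to 1247 in wild-type eggs, and 1993 to 2242 in mutant FG follicles, against 1558 to 2002 in wild-type FG follicles. Of these 10 markers 2 were called higher in mutant eggs, against 7.35% of all tested genes. In mutant FG follicles 3 were called higher and 1 lower, against 10.1% and 13.4% of all tested genes. The egg coat gene zp3b averaged 616 FPKM in mutant FG follicles, against 266 FPKM in wild-type FG follicles, while buc, which organizes the Balbiani body, averaged 743 FPKM in mutants, against 936 FPKM in wild type. Transcripts of the mitochondrial genome made up 43.4% ± 5.81 of summed FPKM in mutant eggs, against 35.5% ± 1.97 in wild-type eggs (SD, n = 5 each). In FG follicles they made up 10.5% ± 3.0 in mutants, against 15.3% ± 1.67 in wild type (SD, n = 4 each).

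Cathepsin levels ran from 0 to 1365 FPKM, with ctsba highest or next to highest in every group. In FG follicles ctsla was closer to ctsa, at 132 and 131 FPKM in wild-type library 3. The mean level of ctsba ranked 41st among all 25432 genes in mutant eggs, 24th in wild-type eggs, 67th in mutant FG follicles and 12th in wild-type FG follicles. Over the same 4 groups ctsla ranked 23rd, 27th, 221st and 232nd. In mutant eggs the levels ran, high to low, as ctsla (992 ± 112 FPKM), ctsba (676 ± 284 FPKM), ctsa (224 ± 34.8 FPKM), ctsc (161 ± 16.1 FPKM) and ctsz (40.6 ± 5.58 FPKM). In wild-type eggs ctsba (1119 ± 265 FPKM) and ctsla (1038 ± 109 FPKM) changed places, followed by ctsa (218 ± 21.5 FPKM), ctsc (187 ± 45.2 FPKM) and ctsz (53.7 ± 12.7 FPKM). The library ranges of ctsba and ctsla overlapped in both kinds of egg, and those of ctsa and ctsc overlapped in wild-type eggs. In FG follicles of both genotypes the order was ctsba, ctsla, ctsa, ctsz and ctsc, and there the ranges of ctsz and ctsc overlapped. The other 5 genes, ctsk, ctsd, ctsl.1, ctsh and ctsbb, stayed under 7 FPKM in every library.

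**Figure D1:**
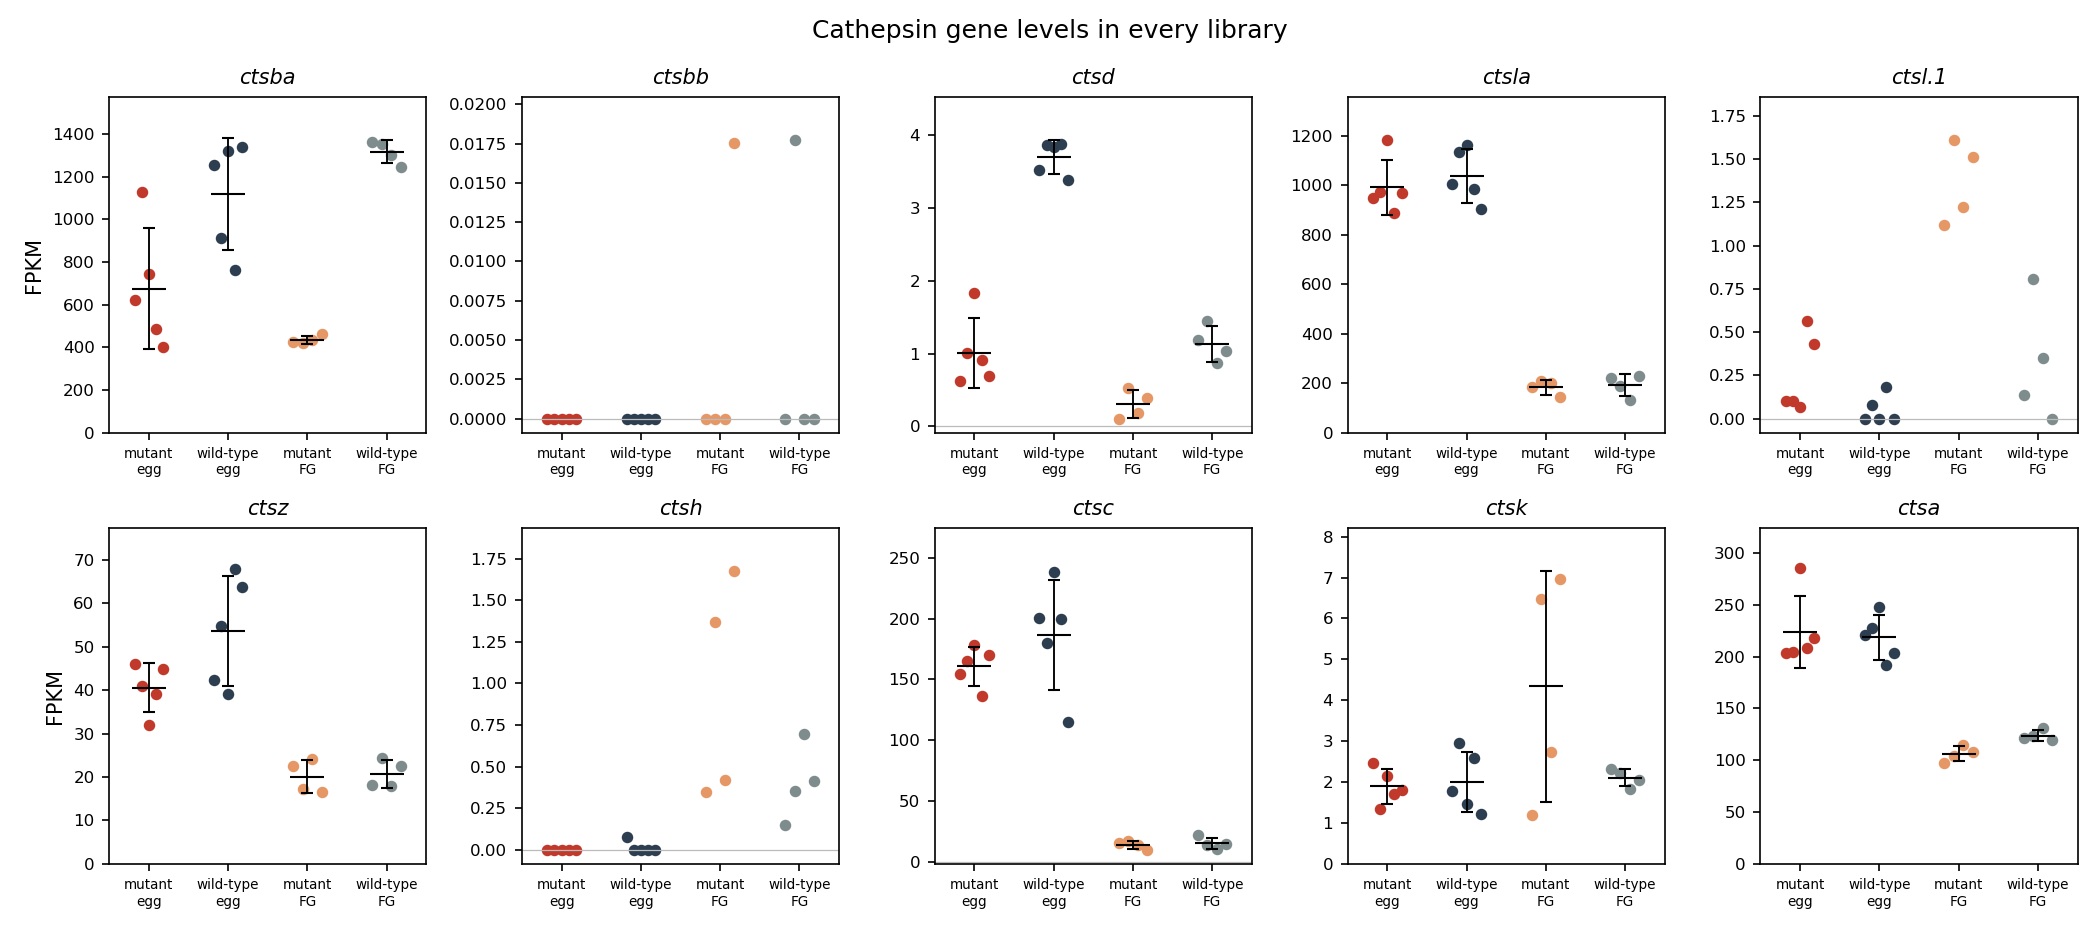
FPKM of the 10 cathepsin genes in every library, 1 panel per gene with its own linear axis; points are libraries (mutant egg, wild-type egg, mutant FG follicle, wild-type FG follicle) and black marks the mean with its SD, left out for ctsbb, ctsh and ctsl.1, which are listed at 0 in some libraries. All 4 mutant FG follicle libraries of ctsba lie between 419 and 463 FPKM, under the 4 wild-type libraries at 1248 to 1365 FPKM.

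ctsba (ENSDARG00000055120) encodes cathepsin B, one of the cysteine proteases known for yolk processing, and its transcript was lower in mutants at both stages. In FG follicles the 4 mutant libraries held 424, 419, 433 and 463 FPKM, against 1365, 1353, 1302 and 1248 FPKM in the 4 wild-type libraries. Every mutant library was below every wild-type one, and the spread within either genotype was under 5% of its mean. The level averaged 435 ± 19.8 FPKM in mutant FG follicles, against 1317 ± 53.3 FPKM in wild-type FG follicles (SD, n = 4 each), a ratio of means of 0.330. The log2 change was -1.60 (SE 0.24, 95% confidence interval -2.09 to -1.10, limma adjusted p = 7.4e-05). Wild-type FG follicle library 4, low in sinhcaf, had 1248 FPKM of ctsba, also above every mutant library. That is 1 fish, and the relation of ctsba to the sinhcaf level was not tested. Pooled ovarian material is measured here, so fewer cells of a type and less RNA per cell cannot be told apart.

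In eggs the 5 mutant libraries held 620, 1128, 742, 486 and 402 FPKM of ctsba, against 1257, 914, 1323, 761 and 1341 FPKM in the 5 wild-type libraries. The groups overlapped: mutant egg library 2 was above wild-type egg libraries 2 and 4, while the other 4 mutant libraries were below all wild-type ones. The log2 change was -0.79 (SE 0.21, 95% confidence interval -1.23 to -0.34, limma adjusted p = 0.0156). This call was lost when mutant egg library 4 was left out (log2 change -0.69, adjusted p = 0.0503). It was also lost with each stage fitted alone (adjusted p = 0.0730), with quantile normalization, which gives every library the same distribution (-0.60, adjusted p = 0.0818), and with egg libraries 1 to 3 only (-0.52, adjusted p = 0.0869). With the mitochondrial genes taken out and the rest scaled to one sum, the log2 change was -0.69 in eggs (adjusted p = 0.0222) and -1.53 in FG follicles (adjusted p = 9.55e-05). The FG follicle call held in all 34 alternative settings, at log2 changes of -2.11 to -1.45. ctsbb (ENSDARG00000101051), the second cathepsin B gene, was listed at 0 FPKM in all libraries but 1 mutant FG follicle library (0.0175 FPKM) and 1 wild-type FG follicle library (0.0177 FPKM), and was not tested.

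ctsd (ENSDARG00000057698) encodes cathepsin D, the aspartic protease of the group, also known for cutting vitellogenin. Its transcript was scarce throughout and was reduced in both stages of the mutant. In eggs it measured 0.617, 1.01, 1.83, 0.909 and 0.688 FPKM in mutants, against 3.52, 3.87, 3.84, 3.89 and 3.39 FPKM in wild type. No mutant egg library reached the wild-type range, and the log2 change was -1.26 (SE 0.14, limma adjusted p = 3.35e-06), called in all 34 alternative settings. In FG follicles it measured 0.105, 0.530, 0.182 and 0.391 FPKM in mutants, against 1.19, 1.45, 0.870 and 1.03 FPKM in wild type. Again the groups did not overlap, with a log2 change of -0.72 (SE 0.16, limma adjusted p = 0.00259). Values this low are near the filter of 1 FPKM, and the FG follicle call was lost with median-of-ratios scaling, by the middle ratio of each library to a common profile (-0.54, adjusted p = 0.0586), and with quantile normalization (-0.43, adjusted p = 0.107). Of the libraries with at least 1 FPKM of ctsd, 8 were wild type and 2 were mutant eggs, so ctsd entered the test through the genotype in which it is high. Without any filter its adjusted p was 2.2e-05 in eggs and 0.00536 in FG follicles. As a ratio of mean FPKM, ctsd stood at 0.273 in eggs and 0.266 in FG follicles.

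The abundant members ctsla, ctsc, ctsa and ctsz showed no called difference between genotypes at either stage. ctsla (ENSDARG00000007836) encodes cathepsin L, also counted among the yolk proteases. It averaged 992 ± 112 FPKM in mutant eggs, against 1038 ± 109 FPKM in wild-type eggs (SD, n = 5 each), with a 95% confidence interval of the log2 change from -0.36 to 0.23. It averaged 184 ± 29.8 FPKM in mutant FG follicles, against 193 ± 43.9 FPKM in wild-type FG follicles (SD, n = 4 each), with an interval from -0.38 to 0.28. The libraries of both genotypes overlapped at both stages. ctsc (ENSDARG00000101334) encodes dipeptidyl peptidase 1, which in mammals activates serine proteases of immune cell granules. It averaged 161 ± 16.1 FPKM in mutant eggs, against 187 ± 45.2 FPKM in wild-type eggs (interval -0.59 to 0.23), and 14.02 ± 3.14 FPKM in mutant FG follicles, against 15.1 ± 4.82 FPKM in wild-type FG follicles (interval -0.54 to 0.38).

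ctsa (ENSDARG00000098114) encodes the serine carboxypeptidase that also shields lysosomal galactosidase and neuraminidase. It averaged 224 ± 34.8 FPKM in mutant eggs, against 218 ± 21.5 FPKM in wild-type eggs (SD, n = 5 each). In FG follicles the mutant libraries held 97.2, 104, 115 and 108 FPKM, against 121, 123, 131 and 120 FPKM in wild type. All 4 mutant libraries were below all 4 wild-type ones, yet the log2 change of -0.22 did not pass (SE 0.11, limma adjusted p = 0.166). ctsz (ENSDARG00000043081) encodes cathepsin Z, a carboxypeptidase of the papain family. In eggs it averaged 40.6 ± 5.58 FPKM in mutants, against 53.7 ± 12.7 FPKM in wild type, with overlapping libraries and a log2 change of -0.37 (limma adjusted p = 0.136). With median-of-ratios scaling it was called lower in mutant eggs (-0.50, adjusted p = 0.0243). In FG follicles it averaged 20.1 ± 3.79 FPKM in mutants, against 20.8 ± 3.23 FPKM in wild type (log2 change -0.05, limma adjusted p = 0.880).

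Of the scarce members, ctsl.1 (ENSDARG00000003902), a cathepsin L family gene by its name, was higher in mutant FG follicles. It measured 1.12, 1.61, 1.22 and 1.51 FPKM in the mutant FG follicle libraries, against 0.137, 0.808, 0.348 and 0 FPKM in the wild-type ones. The groups did not overlap, and the log2 change was 0.87 (SE 0.16, limma adjusted p = 0.000679). Only these 4 mutant libraries reach 1 FPKM, so ctsl.1 entered the test through the group in which it is high. Without any filter on low values its adjusted p was 0.00127. In eggs it measured 0.0997, 0.102, 0.0673, 0.567 and 0.430 FPKM in mutants, and was listed at 0 in 3 of 5 wild-type libraries, with 0.0777 and 0.183 FPKM in the other two (log2 change 0.24, limma adjusted p = 0.300).

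ctsk (ENSDARG00000040251) encodes cathepsin K, known in mammals for breaking down bone matrix in osteoclasts. In FG follicles it measured 1.20, 6.48, 2.72 and 6.97 FPKM in mutants, against 2.33, 2.21, 1.84 and 2.04 FPKM in wild type. Mutant libraries 2 and 4 were about 3 times the wild-type level, library 1 was below it, and the log2 change of 0.60 was not called (SE 0.30, limma adjusted p = 0.168). It was called without mutant FG follicle library 1 (0.97, adjusted p = 0.0100) and stood at -0.12 without mutant libraries 2 and 4. In eggs it averaged 1.89 ± 0.43 FPKM in mutants, against 2.001 ± 0.739 FPKM in wild type. ctsh (ENSDARG00000041108) encodes cathepsin H, an aminopeptidase, and was below the filter. It measured 0.346, 1.37, 0.420 and 1.68 FPKM in mutant FG follicles, against 0.150, 0.353, 0.695 and 0.415 FPKM in wild-type ones, and was listed at 0 in all eggs but 1 wild-type library (0.0750 FPKM).

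The same mutant FG follicle libraries 2 and 4 had higher sums of leukocyte and macrophage markers. The summed FPKM of the 12 markers was 3.64, 21.3, 4.09 and 10.6 in mutant FG follicle libraries 1 to 4, against 2.76 to 4.25 in wild-type ones, and 0.600 to 2.07 in mutant eggs, against 0.276 to 1.67 in wild-type eggs. Most of the mean mutant FG follicle sum was cd74a (3.99 FPKM, against 1.27 FPKM in wild type) and cd74b (4.15 and 1.58 FPKM). Only these markers passed the filter, and both were called higher in mutant FG follicles, against 10.1% of all tested genes. ptprc averaged 0.253 FPKM in mutant FG follicles, against 0.167 FPKM in wild-type ones, and coro1a was at 0 in every mutant FG follicle library. Also higher on average there were marco (0.447 FPKM, against 0.0534 FPKM in wild type), spi1b (0.397 and 0.188 FPKM), mfap4 (0.233 and 0.0445 FPKM) and csf1ra (0.0640 and 0.00984 FPKM). For each of these the libraries of both genotypes overlapped. The mean of lyz was slightly lower in mutants, at 0.0471 FPKM, against 0.0491 FPKM. The macrophage gene mpeg1.1 was at 0 in every library. The 5 osteoclast markers found summed to 2.60 to 5.46 FPKM in mutant FG follicles, against 4.98 to 6.87 FPKM in wild-type FG follicles. Nearly all of this sum was acp5a, with means of 3.91 FPKM in mutants, against 6.003 FPKM in wild type. The others were near 0 and did not all move with it. acp5b was lower in mutants (mean 0 FPKM, against 0.102 FPKM), and ocstamp higher (0.0261 FPKM, against 0 FPKM). tnfrsf11a was higher without overlap, at 0.0427 to 0.157 FPKM in mutants, against at most 0.0158 FPKM in wild type. In mutant FG follicle libraries 1 and 3 ctsl.1 was at 1.12 and 1.22 FPKM, and in libraries 2 and 4 it was higher, at 1.61 and 1.51 FPKM. Mutant FG follicle libraries 2 and 4 also stood apart in other ways. Erythrocyte markers summed to 6.93 and 7.76 FPKM there, against 2.64 and 1.19 FPKM in mutant FG follicle libraries 1 and 3. Theca and stroma markers summed to 86.05 and 90.5 FPKM, against 64.25 and 66.7 FPKM. The mitochondrial share was 12.25% and 13.76%, against 8.25% and 7.64%. Granulosa and oocyte sums did not split the libraries this way. The part of leukocyte transcript, or of these other differences, in the ctsk, ctsh and ctsl.1 values was not tested. The summed FPKM of 12 granulosa markers was 37.2 to 135 in mutant eggs, against 27.7 to 37.1 in wild-type eggs, and 101 to 210 in mutant FG follicles, against 47.0 to 90.8 in wild-type FG follicles, and every mutant library was above every wild-type one of its stage. Nearly all of the egg sum was cyp11a1, a steroid synthesis gene, at 36.6 to 134 FPKM in mutant eggs, against 27.2 to 36.4 FPKM in wild-type eggs. In FG follicles cyp11a1 overlapped, at 43.9 to 113 FPKM in mutants, against 37.9 to 80.6 FPKM in wild type. The aromatase gene cyp19a1a was near 0, with means of 0.0353 FPKM in mutant eggs, against 0.0971 FPKM in wild-type eggs, and 0.00706 FPKM in mutant FG follicles, against 0.0154 FPKM in wild-type FG follicles. inhbb was near 0 too, at 0.0381 FPKM in mutant FG follicles, against 0.0612 FPKM in wild-type FG follicles. foxl2a, also near 0, was the only other granulosa marker with a lower mean in mutant FG follicles. Higher means there were those of inha (27.1 FPKM, against 4.22 FPKM in wild type) and hsd3b1 (8.65 and 2.62 FPKM). lhcgr (4.38 and 2.165 FPKM) and foxl2b (3.59 and 1.27 FPKM) had higher means there as well. Of the 6 granulosa markers tested, 1 was called higher in mutant eggs, against 7.35% of all tested genes, and 2 in mutant FG follicles, against 10.1%. The 9 theca and stroma markers overlapped between genotypes, at 64.25 to 90.5 FPKM in mutant FG follicles, against 78.4 to 108 FPKM in wild-type ones. In eggs they summed to 62.6 to 86.2 FPKM in mutants, against 60.9 to 97.65 FPKM in wild type. Of the 4 tested, 0 were called in eggs (7.35% of all tested genes higher, 7.71% lower) and 0 in FG follicles (10.1% and 13.4%). The part of follicle cell transcript in the cathepsin changes was not tested.

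**Figure D2:**
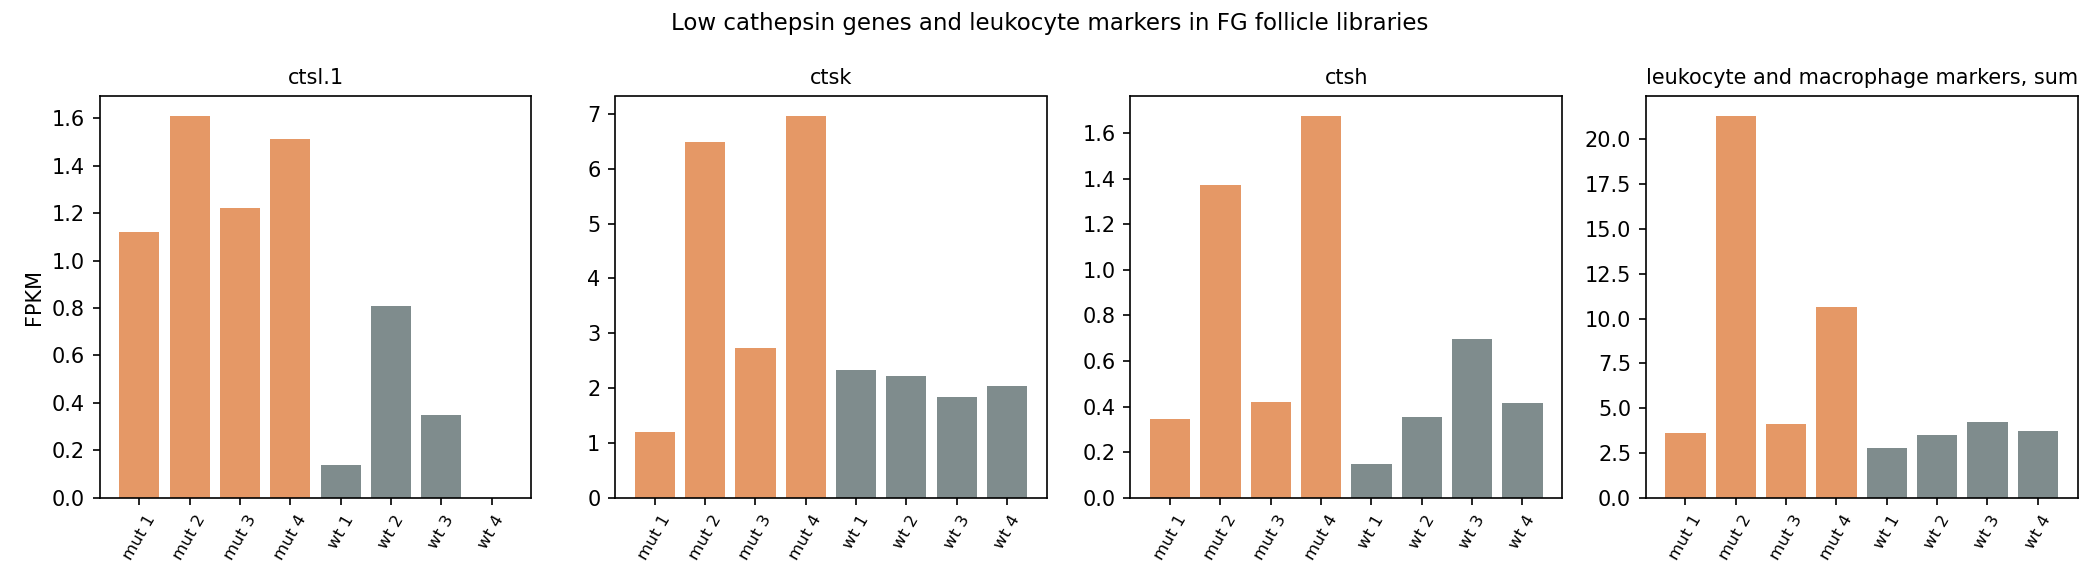
FPKM of ctsl.1, ctsk, ctsh and the sum of 12 leukocyte and macrophage markers in each FG follicle library, mutant (mut 1 to 4) left of wild type (wt 1 to 4). ctsl.1, ctsk, ctsh and the marker sum are highest in mutant libraries 2 and 4. ctsl.1 is above 1 FPKM in all 4 mutant libraries, and it passed the filter on low values only through them.

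Counted over the set, 2 of 8 tested cathepsin genes were called lower in mutant eggs, against 7.71% of all tested genes, and 0 were called higher, against 7.35%. At an unadjusted limma p under 0.05 there were 3 of 8, all lower, the third being ctsz, against 28.6% of all tested genes in either direction. In mutant FG follicles 2 of 8 were called lower, against 13.4% of all tested genes, and 1 was called higher, against 10.1%. Among these calls, ctsd passed the filter mainly through wild-type libraries and ctsl.1 only through mutant FG follicles, where each is high. The counts are therefore given as a description. The median log2 change of the 8 was -0.12 in eggs, beside 0.04 over all tested genes, and -0.07 in FG follicles, beside -0.05. The split of calls over all genes moved with the scaling: 48.8% of egg calls were higher in mutants as deposited, 34.4% with TPM scaling, which brings every library to the same sum, 65.3% with TPM scaling without mitochondrial genes and 38.5% with median-of-ratios scaling. In FG follicles 42.9% were higher in mutants as deposited and 59.9% with TPM scaling. Scaling to TPM without mitochondrial genes moved the median egg change of all genes to 0.14.

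**Figure D3:**
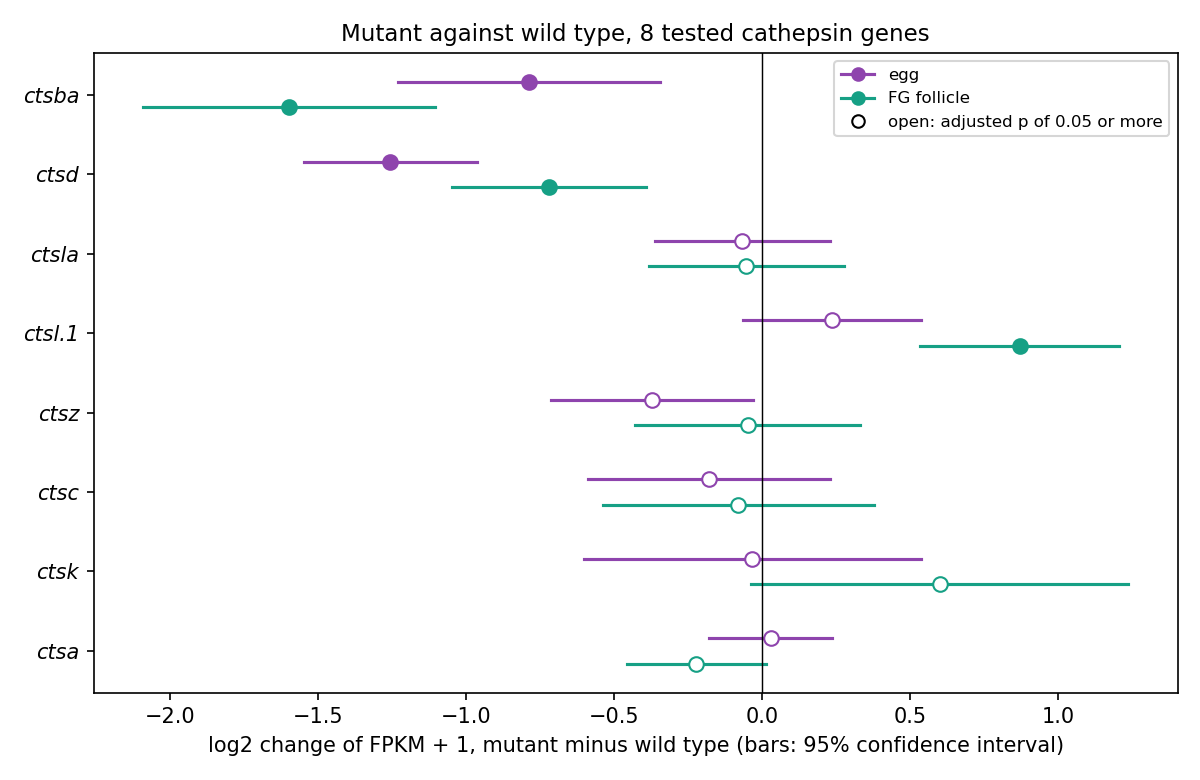
Log2 change of FPKM + 1, mutant minus wild type, for the 8 tested cathepsin genes in eggs (purple, upper of each pair) and FG follicles (green, lower), with 95% confidence intervals; filled points passed an adjusted p of 0.05. ctsba and ctsd lie left of 0 at both stages, and ctsl.1 lies right of 0 in FG follicles at 0.87.

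Whether the genotype effect differed between eggs and FG follicles was tested as an interaction. None of the 8 genes passed by limma, against 6.95% of all tested genes, and 3 of the 8 had an unadjusted limma p under 0.05, against 22.4% of all tested genes. For ctsba the egg effect minus the FG follicle effect was 0.81 (SE 0.32, limma adjusted p = 0.130). It was called with quantile normalization (1.51), with array weights (1.05), with egg libraries 1 to 3 only (1.08) and without mutant egg library 5 (0.97). For ctsd the difference was -0.54 (SE 0.21, limma adjusted p = 0.131). With a pseudocount of 0.1 in place of 1, which compresses low values less, it was -0.13 (adjusted p = 0.913), while it was called with median-of-ratios scaling (-0.93, adjusted p = 0.0424), with quantile normalization (-0.93, adjusted p = 0.0294) and without mutant egg library 3 (-0.67, adjusted p = 0.0274). For ctsl.1 the difference was -0.63 (SE 0.22, limma adjusted p = 0.0845), and it was called without wild-type FG follicle library 2 (-0.80, adjusted p = 0.0175).

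The ratio of 2 cathepsin genes within a library is the same under any scaling by 1 factor per library, though not under quantile normalization. The ratio of ctsba to ctsa was 4.36, 4.02, 3.76 and 4.28 in mutant FG follicles, against 11.3, 10.98, 9.92 and 10.4 in wild-type ones. The ratio of ctsba to ctsla was 2.31, 1.996, 2.18 and 3.26 in mutant FG follicles, against 6.17, 7.19, 9.84 and 5.46 in wild-type ones. Neither ratio overlapped between genotypes. In eggs the ratio of ctsba to ctsla averaged 0.681 ± 0.284 in mutants, against 1.09 ± 0.302 in wild type (SD, n = 5 each), with overlapping libraries. The ratio of ctsla to ctsa lay closer together, and averaged 1.74 ± 0.305 in mutant FG follicles, against 1.57 ± 0.408 in wild-type FG follicles (SD, n = 4 each), and 4.46 ± 0.250 in mutant eggs, against 4.76 ± 0.290 in wild-type eggs (SD, n = 5 each).

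At these levels ctsba made up 56.8% of the summed FPKM of the 10 genes in mutant FG follicles, against 78.7% in wild-type ones, and 31.4% in mutant eggs, against 42.3% in wild-type eggs. ctsla made up 23.9% in mutant FG follicles, against 11.5% in wild-type FG follicles, and 47.9% in mutant eggs, against 39.9% in wild-type eggs. The other 9 genes together summed to 331 ± 33.9 FPKM in mutant FG follicles, against 356 ± 43.3 FPKM in wild-type FG follicles, and to 1421 ± 154 FPKM in mutant eggs, against 1503 ± 154 FPKM in wild-type eggs. The sums without ctsba overlapped between genotypes at both stages. All 10 together held 0.503% of the summed FPKM of the library in mutant eggs, 0.673% in wild-type eggs, 0.261% in mutant FG follicles and 0.515% in wild-type FG follicles.

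**Figure D4:**
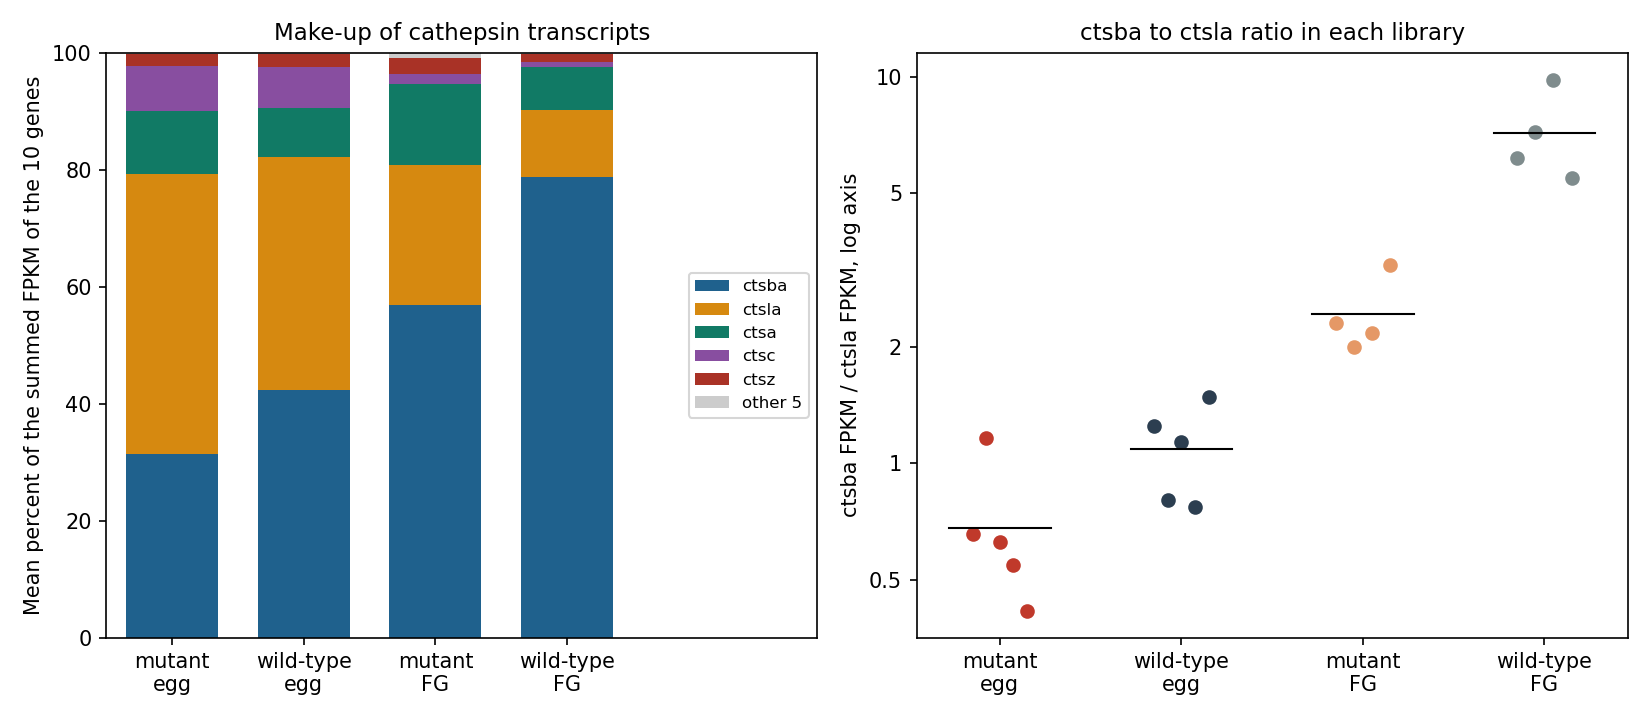
Left, mean share of each gene in the summed FPKM of the 10 cathepsin genes (percent, stacked bars, from 0) in the 4 groups; right, the ratio of ctsba to ctsla FPKM in each library on a log axis, with the group mean as a line. ctsba holds 56.8% in mutant FG follicles, against 78.7% in wild-type FG follicles, and its ratio to ctsla is at most 3.26 in mutant FG follicles, against at least 5.46 in wild-type FG follicles.

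Between stages ctsc, ctsla, ctsz, ctsa and the scarce ctsd were higher in eggs than in FG follicles in both genotypes. ctsba was not called in wild type with the values as deposited. Of all tested genes, more were called lower than higher in eggs as deposited, a split that moved with the scaling. In mutants 6 of 8 tested cathepsin genes were called higher in eggs, against 23.4% of all tested genes, and 2 were called lower, against 58.3%. In wild type 5 of 8 were called higher in eggs, against 22.1%, and 0 lower, against 60.8%. None of the other 3 had an unadjusted limma p under 0.05 there. The median log2 change of the 8 was 0.80 in mutants, beside -0.79 over all tested genes, and 0.98 in wild type, beside -0.85.

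ctsc had the largest log2 difference between stages of the 8, with every egg library above every FG follicle library. The ratio of its mean FPKM in eggs to that in FG follicles was 11.5 in mutants, against 12.4 in wild type, with log2 changes of 3.45 (SE 0.21, limma adjusted p = 1.58e-11) and 3.55 (SE 0.21, limma adjusted p = 1.04e-11). For ctsla the ratio was 5.40 in mutants, against 5.39 in wild type, again without overlap (log2 changes 2.44 and 2.45). The stage differences of ctsz (0.99 in mutants, against 1.31 in wild type), ctsa (1.06 and 0.81) and ctsd (0.61 and 1.14) were smaller. These 5 genes were called in both genotypes in all 33 alternative settings. FPKM shares out a library among its transcripts, so a stage difference is relative to the rest of the RNA of that stage. Cell type marker sums differed between stages too. In wild type, leukocyte and macrophage markers summed to 0.276 to 1.67 FPKM in eggs, against 2.76 to 4.25 FPKM in FG follicles. Granulosa markers summed to 27.7 to 37.1 and 47.0 to 90.8 FPKM. Theca and stroma sums overlapped, and endothelial sums were higher in eggs (4.37 to 7.26 and 2.76 to 3.71 FPKM). The part of cell make-up in the stage differences was not tested. The median stage difference of all tested genes moved with the scaling, to -1.43 in mutants and -1.32 in wild type with TPM, to -0.12 and -0.14 with median of ratios, and to 0.04 and 0.02 with quantile normalization. Of all stage calls 28.7% were higher in eggs in mutants and 26.7% in wild type as deposited, against 46.7% and 46.1% with median of ratios and 51.0% and 51.2% with quantile normalization.

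ctsba did not follow them in wild type, at 1119 ± 265 FPKM in eggs and 1317 ± 53.3 FPKM in FG follicles, with overlapping libraries (log2 change -0.27, SE 0.22, limma adjusted p = 0.269). In mutants it stood at 676 ± 284 FPKM in eggs and 435 ± 19.8 FPKM in FG follicles, and was called higher in eggs (0.54, SE 0.22, limma adjusted p = 0.0323). That call was lost in 10 of 33 settings, among them TPM scaling (0.04) and leaving out mutant egg library 2 (0.33) or 3 (0.48) or mutant FG follicle library 1 (0.53), 2 (0.52) or 3 (0.54). In wild type the ctsba stage difference moved with the scaling. It was called higher in eggs with median-of-ratios scaling (0.86, limma adjusted p = 0.0124). With TPM scaling (-0.53, limma adjusted p = 0.0289) and quantile normalization (-1.20, limma adjusted p = 0.000189) it was called lower in eggs. The lower calls in mutant eggs were ctsl.1 (-0.93, SE 0.15, limma adjusted p = 1.58e-05) and ctsk (-0.71, SE 0.29, limma adjusted p = 0.0289). The ctsl.1 call, which again rests on the group that let the gene pass the filter, was lost with quantile normalization (-0.15). The ctsk call was lost in 11 of 33 settings, among them leaving out mutant FG follicle library 2 (-0.49) or 4 (-0.46) or mutant egg library 2 (-0.64).

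**Figure D5:**
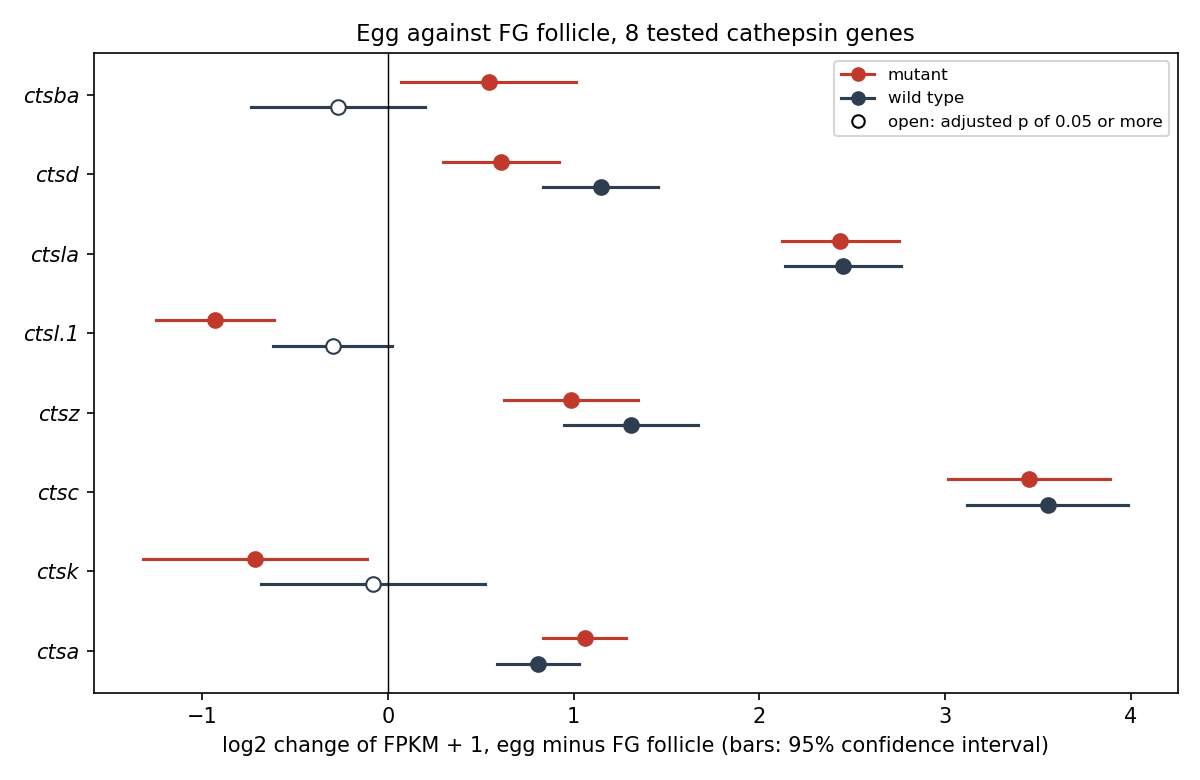
Log2 change of FPKM + 1, egg minus FG follicle, for the 8 tested cathepsin genes in mutants (red, upper of each pair) and wild type (dark, lower), with 95% confidence intervals; filled points passed an adjusted p of 0.05. ctsc lies at 3.45 in mutants, against 3.55 in wild type, and ctsba on different sides of 0.

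Within groups the members did not all move together. After the group means were taken away, the correlation over the 18 libraries ran from -0.613 between ctsz and ctsa to 0.768 between ctsla and ctsc among the 28 pairs of tested members. ctsba and ctsla had a correlation of 0.046, and ctsba and ctsd one of 0.242. By the same measure, the genes most like ctsba among 8737 compared were mrpl21, a mitochondrial ribosomal protein gene (r = 0.900), and rps27a, which encodes a fusion of ubiquitin and a ribosomal protein (r = 0.838). For ctsd they were the chloride and proton exchanger gene clcn3 (r = 0.866) and s100v2 (r = 0.833). For ctsl.1 they were the cargo receptor gene surf4 (r = 0.881) and the repressor gene bcl6ab (r = 0.874). These values share library, scaling and the choice of the highest of many, and are given as a description.

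The table held 9 further rows with cathepsin symbols, of which 3 were tested, and some of these moved the other way. ctss2.1, a cathepsin S family gene, measured 288, 461, 395, 285 and 251 FPKM in mutant eggs, against 215, 86.1, 237, 87.1 and 101 FPKM in wild-type eggs. Every mutant egg library was above every wild-type one (log2 change 1.31, SE 0.32, limma adjusted p = 0.00819). In FG follicles it measured 395, 493, 355 and 444 FPKM in mutants, against 681, 259, 276 and 659 FPKM in wild type, with overlap (log2 change -0.02, limma adjusted p = 0.979). ctsf, cathepsin F, was called lower in mutant eggs (0.821 ± 0.680 FPKM in mutants, against 2.75 ± 1.38 FPKM in wild type, log2 change -1.03, limma adjusted p = 0.0190). ctso, cathepsin O, was called higher in mutant FG follicles (3.63 ± 0.895 FPKM in mutants, against 1.63 ± 0.628 FPKM in wild type, log2 change 0.83, limma adjusted p = 0.00813). How reads shared by similar cathepsin genes were counted is not given in the sources used here, so levels of close copies are uncertain.

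Around the proteases, the list of these further cathepsins and related lysosomal peptidases had 9 tested genes, with 1 called higher and 2 lower in mutant eggs, and 2 higher and 1 lower in mutant FG follicles. Over all tested genes the shares were 7.35% higher and 7.71% lower in eggs, and 10.1% higher and 13.4% lower in FG follicles, and the counts of all lists that follow stand beside these. lgmn encodes legumain, which cuts cathepsin precursors. It fell in mutant eggs, at 17.0 ± 5.58 FPKM in mutants, against 31.9 ± 6.26 FPKM in wild type (SD, n = 5 each, log2 change -0.91, limma adjusted p = 0.00249). In FG follicles the lysosomal carboxypeptidase gene prcp rose by 0.52 and cpvl fell by 0.43 on the log2 scale (limma adjusted p = 0.00878 and 0.00596). Of 6 tested cystatins and other inhibitors, 0 were called by limma in eggs, with 0 also at an unadjusted p under 0.05 (28.6% of all tested genes), and 3 were called higher in mutant FG follicles, against 10.1% of all tested genes. Those were cst3, cystatin C (13.6 ± 6.15 FPKM in mutants, against 7.29 ± 2.17 FPKM in wild type, limma adjusted p = 0.0305), serpinb1l3 (28.2 ± 2.62 and 19.4 ± 4.65 FPKM, 0.0198) and cst14a.2 (115 ± 15.7 and 82.9 ± 7.78 FPKM, 0.0443; SD, n = 4 each).

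Vitellogenin transcripts, the source of the yolk that cathepsins cut, were near absent, with 0 of 8 genes passing the filter. Vitellogenin is made in the liver. The highest value was 0.576 FPKM, for vtg1 in a wild-type FG follicle library. Of 8 tested yolk uptake receptors and adaptors, 0 were called by limma in eggs, with 1 at an unadjusted p under 0.05. In mutant FG follicles lrp1aa was called higher (4.92 ± 2.90 FPKM in mutants, against 1.98 ± 0.518 FPKM in wild type, limma adjusted p = 0.00852) and the endocytic adaptor gene ldlrap1b lower (1.501 ± 0.123 FPKM in mutants, against 3.41 ± 0.838 FPKM in wild type, limma adjusted p = 0.00126).

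The V-ATPase is the proton pump that acidifies lysosomes, and of its 18 tested genes 2 were called lower in mutant eggs, against 7.71% of all tested genes. In mutant FG follicles 3 were called higher and 3 lower, against 10.1% and 13.4%, so the list lay near the background. The subunit gene atp6v1d fell at both stages, at 2.55 ± 0.667 FPKM in mutant eggs, against 4.54 ± 0.612 FPKM in wild-type eggs (SD, n = 5 each), and at 10.4 ± 1.54 FPKM in mutant FG follicles, against 18.7 ± 1.55 FPKM in wild-type FG follicles (SD, n = 4 each). atp6v0e1 measured 34.0 ± 2.22 FPKM in mutant FG follicles, against 84.5 ± 21.4 FPKM in wild-type FG follicles (log2 change -1.26, limma adjusted p = 0.0361).

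Of 34 tested genes for other lysosomal hydrolases and membrane proteins, 5 were called higher and 1 lower in mutant eggs, against 7.35% and 7.71% of all tested genes. In mutant FG follicles 3 were called higher and 5 lower, near the background of 10.1% and 13.4%. asah1a, acid ceramidase, rose at both stages. It averaged 9.98 ± 4.36 FPKM in mutant eggs, against 1.67 ± 0.748 FPKM in wild-type eggs (log2 change 2.0, limma adjusted p = 5.5e-06), and 177 ± 10.5 FPKM in mutant FG follicles, against 36.9 ± 4.55 FPKM in wild-type FG follicles (2.24, limma adjusted p = 4.58e-06). The cystine transporter gene ctns fell in mutant FG follicles, at 0.962 ± 0.493 FPKM in mutants, against 3.68 ± 0.708 FPKM in wild type. gla, alpha-galactosidase, fell there too, at 2.49 ± 1.39 FPKM in mutants, against 6.86 ± 1.62 FPKM in wild type.

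Cathepsin precursors reach the lysosome by their mannose 6-phosphate tag, and of 14 tested genes for tagging and sorting 1 was called lower in mutant eggs, near the 7.71% of all tested genes. In mutant FG follicles 1 was called higher and 1 lower, against 10.1% and 13.4%. vps26a, a subunit of the retromer that returns sorting receptors from endosomes, fell at both stages. It averaged 4.94 ± 2.12 FPKM in mutant eggs, against 16.8 ± 2.09 FPKM in wild-type eggs (log2 change -1.64, limma adjusted p = 3.47e-05), and 9.62 ± 3.23 FPKM in mutant FG follicles, against 47.7 ± 13.7 FPKM in wild-type FG follicles (-2.20, limma adjusted p = 3.09e-06). igf2r, the mannose 6-phosphate receptor of the large type, rose in mutant FG follicles, at 3.94 ± 0.760 FPKM in mutants, against 2.04 ± 0.493 FPKM in wild type (limma adjusted p = 0.0138). Of 10 tested regulators of lysosomal genes, 2 were called higher in mutant eggs, usf1 (log2 change 1.13, limma adjusted p = 0.000567) and lamtor1 (0.53, 0.0185), and 1 in mutant FG follicles, mtor (0.50, 0.000667). Median log2 changes in mutant eggs and mutant FG follicles were -0.10 and 0.19 for the further peptidases, 0.19 and 0.43 for the inhibitors, 0.03 and 0.06 for yolk uptake and 0.08 and 0.11 for the V-ATPase. Those of the last 3 lists stayed between -0.09 and 0.08 in both genotype comparisons, beside 0.04 in eggs and -0.05 in FG follicles over all tested genes.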

How the data were processed

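The authors deposited FPKM values for 18 libraries, with Trimmomatic, HISAT2, Cufflinks, HTSeq and the build GRCz11 named in the submitters' processing notes. Roles, versions, annotation, treatment of shared reads and use of strand are not given in the sources used here. Per the labels' protocols, libraries were made with a stranded mRNA kit from RNA of integrity 7 or more. Every library column was used.

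Values were analysed as log2(FPKM + 1). Genes with at least 1 FPKM in at least 4 libraries were tested (10547 of 25432). The limma package (3.58.1, in R 4.3.3 with data.table, 1.17.8) fitted 4 group means per gene with moderated variances that follow a trend in level, leaving 14 residual degrees of freedom, and p-values were Benjamini-Hochberg adjusted over all tested genes. The script was tested on simulated data. sinhcaf was compared with two-sided exact permutation tests (scipy 1.17.1). Descriptions and figures were made with pandas 2.3.3 and matplotlib 3.10.9.

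Replicate numbers of the titles were checked as pairs. Same-numbered mutant and wild-type egg libraries correlated at 0.112 to 0.447 in their deviations from the group means, and FG follicle libraries at -0.118 to -0.023. Some egg libraries of unlike number correlated as highly, such as mutant 1 with wild-type 3 (0.176) and mutant 5 with wild-type 4 (0.372). Across genotypes, any of egg libraries 1 to 3 against 4 or 5 gave negative values (-0.450 to -0.159). Eggs thus showed a split of libraries 1 to 3 from 4 and 5 in both genotypes more than pairs by number. Replicate number was a block in alternative fits, and such a block also takes in this split. The split and the pairing come from the data alone, since the labels name no shared batch.

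The members, the gene and marker lists and the tests were chosen with earlier results of these data known. Named genes were all 10 members, the 2 genes most correlated with each member called by genotype, rows with other cathepsin symbols that were tested, and up to 3 called genes per list and genotype comparison with a mean of at least 1 FPKM. Fewer are named here, a narrowing made after their values were seen. Alternatives were other pseudocounts, filters, scalings (TPM, median of ratios, quantile), prior variances, library weights, a replicate block, single-stage fits and leaving out each library. Both library subsets (mutant FG follicle libraries 2 and 4 left out; egg libraries 1 to 3 only) were chosen after seeing the data.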

Additional observations from a re-analysis of the deposited data

Results flagged for a closer look

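In groups of 4 or 5 libraries, 5 of 37 sets of values held a library far from the others by Dixon's test, which chance flags in about 1 of 20 sets. That rate does not apply to the flagged ctsbb and ctsh sets, where a single value above 0 beside values of 0 is always flagged. Mutant egg library 3 had the highest ctsla level of its group, 1183 FPKM, with 971 FPKM in the next library. The same library had the highest ctsa level, 285 FPKM, with 218 FPKM in the next. ctsbb was above 0 only in mutant FG follicle library 4 (0.0175 FPKM) and wild-type FG follicle library 2 (0.0177 FPKM). ctsh was above 0 in 1 wild-type egg library (0.0750 FPKM) and in no mutant egg library.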

How the results depend on the processing

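Over the 8 tested genes, 5 contrasts and up to 34 alternative settings, 1331 values were set beside those reported. Of these, 1285 kept their side of the threshold, 26 lost a call, 15 gained one and 5 turned round. A value counted as turned round if its sign changed and at least 1 of the 2 fits called it. Among the 1285 are 46 sign changes of values called in neither fit. Turned round were the stage difference of ctsk in mutants with quantile normalization (0.393, limma adjusted p = 0.222) and without mutant FG follicle libraries 2 and 4 (0.0023, 0.996). Neither of these was called, so they too are lost calls rather than a called change of direction. The others were ctsk in wild type with median-of-ratios scaling (0.660) and quantile normalization (1.03), and ctsba in wild type with median-of-ratios scaling (0.856). Those were called there but not as deposited. The cause was not tested.

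In eggs 1 member, ctsd, was called by genotype with quantile normalization, with each stage fitted alone and with egg libraries 1 to 3 only, and 1 to 2 with a library left out. Over all genes the egg count was 1737 of 10547 with quantile normalization, 1222 to 1740 with a library left out and 2573 with array weights. Over all 34 settings it ran from 1222 to 2573. In FG follicles the count over all genes was 3753 without a filter (more genes tested), 1608 with the filter at 9 libraries (fewer tested) and 4232 with array weights. For the difference between stages, 1 member was called with median-of-ratios scaling, 1 with array weights, 1 with egg libraries 1 to 3 only, 2 with quantile normalization, and 0 to 1 with a library left out. Over all genes that count was 372 with a pseudocount of 0.1, 381 with the filter at 9 libraries, 473 with TPM scaling, 469 with TPM scaling without mitochondrial genes and 2379 with array weights. Between stages in mutants 5 of 8 members were called with quantile normalization, against 8341 of all 10547 tested genes. With a replicate block within stage the members called by genotype were the same 2 in eggs and 3 in FG follicles. Over all 10547 genes 1948 and 2772 were called. ctsba in eggs had an adjusted p of 0.0264 by limma, and no member's call changed. ctsl.1 gave no value with the filter at 9 libraries. The protein and promoter sequences of the members were not analysed here.

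Depth is unknown, so counting error is not known for the genes near 0 FPKM (ctsd, ctsl.1, ctsh, ctsbb). Their values rest on 4 or 5 fish a group.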

Other observations

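By gene order in the RefSeq annotation of the assembly GRCz12tu, which is not the build of the table and serves only for order, none of the 10 cathepsin genes lies on the chromosome of sinhcaf. ctsba and ctsl.1, both called by genotype, lie on the same chromosome as each other. Among genes within 3 places of ctsba, 3 were tested, and 0 of them were called by limma at either stage, with 0 in eggs and 1 in FG follicles at an unadjusted p under 0.05. Near ctsd 1 gene was tested and near ctsl.1 4, again with 0 calls at either stage, and with 1 gene near ctsl.1 at an unadjusted p under 0.05 in each stage. Over all tested genes 7.35% were called higher and 7.71% lower in eggs, and 10.1% and 13.4% in FG follicles. At an unadjusted limma p under 0.05 the shares were 28.6% and 34.9%. With so few neighbours tested, the counts cannot be told apart from these shares. ctsk and ctss2.1 are direct neighbours. In eggs the log2 change was 1.31 for ctss2.1 and -0.03 for ctsk, and in FG follicles it was -0.02 for ctss2.1 and 0.60 for ctsk. The neighbours were looked up after the values of the members were seen.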
